A study of Mus musculus with 26 samples.

Results

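The mitochondrial respiratory chain is built from subunits encoded in 2 genomes, and the present description covers the nuclear set in mouse embryos lacking Traf7, an adaptor protein with a RING finger and WD40 repeats. Members were all protein-coding genes whose symbol begins with Ndufa, Ndufb, Ndufc, Ndufs or Ndufv and a number, is Sdha, Sdhb, Sdhc or Sdhd, or begins with Uqc, Cox5, Cox6, Cox7, Cox8 or Atp5, in both deposited tables. Ndufa4, Ndufa4l2, Cox7a1 and Cox7a2 were left out by the rule, so that 82 of the 86 matching genes remained, out of 54532 genes in each table. Of these, 35 belong to complex I (NADH dehydrogenase), 4 to complex II (succinate dehydrogenase), 11 to complex III (ubiquinol-cytochrome c reductase, among them the 3 assembly factors Uqcc1, Uqcc2 and Uqcc3), 14 to complex IV (cytochrome c oxidase) and 18 to complex V (ATP synthase). The name rule does not reach Ndufab1, Cyc1 and Cox4i1, which are subunits with other names.

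RNA of whole embryos at E9.5, freed of the yolk sac, was sequenced in 26 libraries of 1 embryo each. The 6 GLOko embryos carried a global deletion of Traf7, obtained by crossing a floxed allele, with loxP sites around exons 2 and 14, to E2a-Cre mice, in which the adenovirus EIIa promoter drives Cre throughout the early embryo. They were compared with 6 WT embryos. The 7 ECko embryos were Traf7 fl/fl;Tie2-Cre+, and the 7 EChet embryos were the Tie2-Cre heterozygote controls, which therefore carry Cre and lack 1 copy of Traf7 in the same cells. Tie2-Cre is active in early endothelium and in blood-forming cells, so that every other cell of an ECko embryo keeps Traf7. All lines were on a C57BL/6 background. Values are FPKM, fragments scaled to gene model length and library size, and each table was normalized on its own, so that levels were compared within a table only. Where 3 values are given for a group of embryos, they are its lowest, median and highest value. In bulk RNA, fewer cells of a type and less RNA per cell cannot be told apart.

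Between 16662293 and 25364652 reads fell in genes per library, and the members took 0.766% to 1.04% of them. Traf7 was at 1.75 to 3.12 FPKM in GLOko embryos and at 11.1 to 20.6 FPKM in WT embryos, whereas in the Tie2-Cre table it was at 13.6 to 20.4 FPKM in ECko and 18.8 to 22.7 FPKM in EChet embryos (limma adjusted p = 0.203). At equal reads, GLOko 1, GLOko 2 and GLOko 6 had 16826, 18624 and 17012 genes detected, against 19460 to 19813 in the other GLOko embryos and 19263 to 19707 in WT embryos. The median of 8 cardiomyocyte markers was far below the control mean in GLOko 1 (-4.88 on the log2 scale), WT 4 (-2.89), ECko 3 (-3.63) and ECko 4 (-3.14), although no heart marker was called in either comparison. The counts of members and of the main gene lists in both comparisons are also given without these libraries.

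Complexes I to IV pass electrons from NADH and succinate to oxygen. Complexes I, III and IV pump protons across the inner membrane, and ATP synthase uses the resulting gradient to make ATP. Complex I consists of core subunits, which carry the flavin and the iron-sulfur clusters or form the proton channels, and of a shell of small accessory subunits. ATP synthase has a catalytic F1 head, a rotating ring of subunit c in the membrane and a peripheral stalk. Transcription of many of these genes is known to depend on the factors NRF1 and GABP (an ETS protein), whose sites lie close to the start of transcription.

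Promoters of several members that were lower in GLOko embryos are shown here, to set their motifs beside the values. Sequences from 250 bases before to 50 bases after the start came from RefSeq (GRCm38.p6) and matched 66 of the 81 member symbols, with 71 promoters in all. Those of Cox5b, Uqcr11, Ndufs5 and Cox5a, which were lower in GLOko embryos, are given, followed by that of Atp5b, the catalytic beta subunit of F1, which was not called. Capitals mark, on either strand, the NRF1 short site TGCGCA, the NRF1 core GCGCATGC, which can overlap it, the GABP/ETS site CCGGAAG and the YY1 site ATGGCGG.
Cox5b, chr1:36691237-36691536, plus strand: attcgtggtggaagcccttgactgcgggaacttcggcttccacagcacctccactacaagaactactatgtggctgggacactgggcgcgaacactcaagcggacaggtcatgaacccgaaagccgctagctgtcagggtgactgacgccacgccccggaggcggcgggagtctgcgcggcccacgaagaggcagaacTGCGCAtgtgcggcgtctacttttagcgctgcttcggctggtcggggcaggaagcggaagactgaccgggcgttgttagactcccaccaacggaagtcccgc
Uqcr11, chr10:80406772-80407071, minus strand: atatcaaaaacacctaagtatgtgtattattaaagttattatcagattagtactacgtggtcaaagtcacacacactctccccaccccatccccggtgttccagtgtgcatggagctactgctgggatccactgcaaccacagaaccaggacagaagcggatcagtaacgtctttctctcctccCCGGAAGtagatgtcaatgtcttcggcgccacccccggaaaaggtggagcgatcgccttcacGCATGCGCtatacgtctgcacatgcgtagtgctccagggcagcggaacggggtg
Ndufs5, chr4:123718137-123718436, minus strand: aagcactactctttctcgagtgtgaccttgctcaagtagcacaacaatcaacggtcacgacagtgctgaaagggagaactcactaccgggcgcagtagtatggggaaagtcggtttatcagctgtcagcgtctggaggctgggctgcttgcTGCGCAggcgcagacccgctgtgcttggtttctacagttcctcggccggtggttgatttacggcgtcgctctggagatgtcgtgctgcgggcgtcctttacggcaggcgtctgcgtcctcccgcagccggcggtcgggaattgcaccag
Cox5a, chr9:57520982-57521281, plus strand: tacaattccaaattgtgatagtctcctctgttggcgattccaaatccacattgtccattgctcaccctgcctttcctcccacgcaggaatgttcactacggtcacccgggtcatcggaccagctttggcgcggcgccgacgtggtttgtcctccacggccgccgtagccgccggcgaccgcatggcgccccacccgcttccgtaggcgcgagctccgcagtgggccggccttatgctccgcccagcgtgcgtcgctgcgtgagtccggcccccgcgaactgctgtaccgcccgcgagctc
Atp5b, chr10:128083057-128083356, plus strand: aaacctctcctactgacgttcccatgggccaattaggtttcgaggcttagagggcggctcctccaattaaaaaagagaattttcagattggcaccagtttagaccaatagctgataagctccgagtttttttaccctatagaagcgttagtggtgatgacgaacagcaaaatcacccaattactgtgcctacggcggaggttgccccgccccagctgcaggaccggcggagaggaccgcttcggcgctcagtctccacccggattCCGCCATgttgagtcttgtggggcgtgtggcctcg
Cox5b held 1 NRF1 short site, Uqcr11 held an NRF1 core and a GABP/ETS site, Ndufs5 held 1 NRF1 short site, Cox5a held none of the 4 motifs and Atp5b held 1 YY1 site. Over all member promoters, the NRF1 short site was in 19 of 71 (26.8%), against 7.76% of the 32851 promoters in the table. The NRF1 core was in 14.1% of member promoters and 2.71% of all promoters. The corresponding shares were 22.5% and 8.86% for GABP/ETS and 15.5% and 4.05% for YY1, whereas the hypoxia response core ACGTG was in 25.4% of member promoters and 19.6% of all. There were 10 promoters for members lower in GLOko embryos, with Ndufa5 counted at both of its starts. Of these, 5 held the NRF1 short site, 2 the NRF1 core, 2 the GABP/ETS site, 1 the YY1 site and 3 the hypoxia response core. Both Ndufa5 starts were among those with the NRF1 short site. These are matches of letters, and binding was not measured. The NRF1 core was added after the promoters had been looked at.

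Nrf1 itself, the transcription factor named above, was lower in GLOko than in WT embryos (6.52 ± 0.869 against 8.52 ± 0.332 FPKM, SD, n = 6 each, log2 difference -0.37, limma adjusted p = 0.0285). Its call held under 17 of the 27 alternatives run and ended with a fixed FPKM total (limma adjusted p = 0.116) and without GLOko 1 and WT 4 (limma adjusted p = 0.0748). Among 14 regulators of mitochondrial biogenesis, 1 fell and 1 rose (7.14% each), against 5.01% and 5.42% of all genes tested. The gene that rose was Ppargc1b, a coactivator of nuclear respiratory genes, from 0.533 ± 0.158 to 1.34 ± 0.743 FPKM (log2 difference 1.10, limma adjusted p = 0.0387), and its call held under 12 of 26 alternatives. Gabpa, which encodes the DNA-binding subunit of GABP, was at 16.6 FPKM in GLOko and 17.7 FPKM in WT embryos (log2 difference -0.07, limma adjusted p = 0.664).

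The first comparison asked what global loss of Traf7 does to these genes. In GLOko embryos 11 of the 79 members tested were lower than in WT embryos and none was higher at a limma adjusted p of 0.05 or less, where 5.01% of all 17573 genes were lower and 5.42% higher. The 11 were Ndufa2, Ndufa5, Ndufa11, Ndufb7, Ndufb8 and Ndufs5 of complex I, Uqcr11 and Uqcrq of complex III, Cox5a and Cox5b of complex IV, and Atp5g3 of complex V. The median log2 difference over the members was -0.19, against 0.01 over all genes tested, and 61 of 79 differences were negative. By the unadjusted p under 0.05, 34 members were lower and 1, Ndufv3, was higher, where 2495 of all 17573 genes were lower and 2474 higher. In 8 members the groups did not overlap, all of them lower, where 4.81% of all genes were lower and 3.9% higher without overlap. These were Ndufa2, Ndufb7, Ndufs5, Ndufv1, Uqcr11, Cox5a, Cox5b and Cox6b1, of which Ndufv1 and Cox6b1 were not called.

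**Figure D1:**
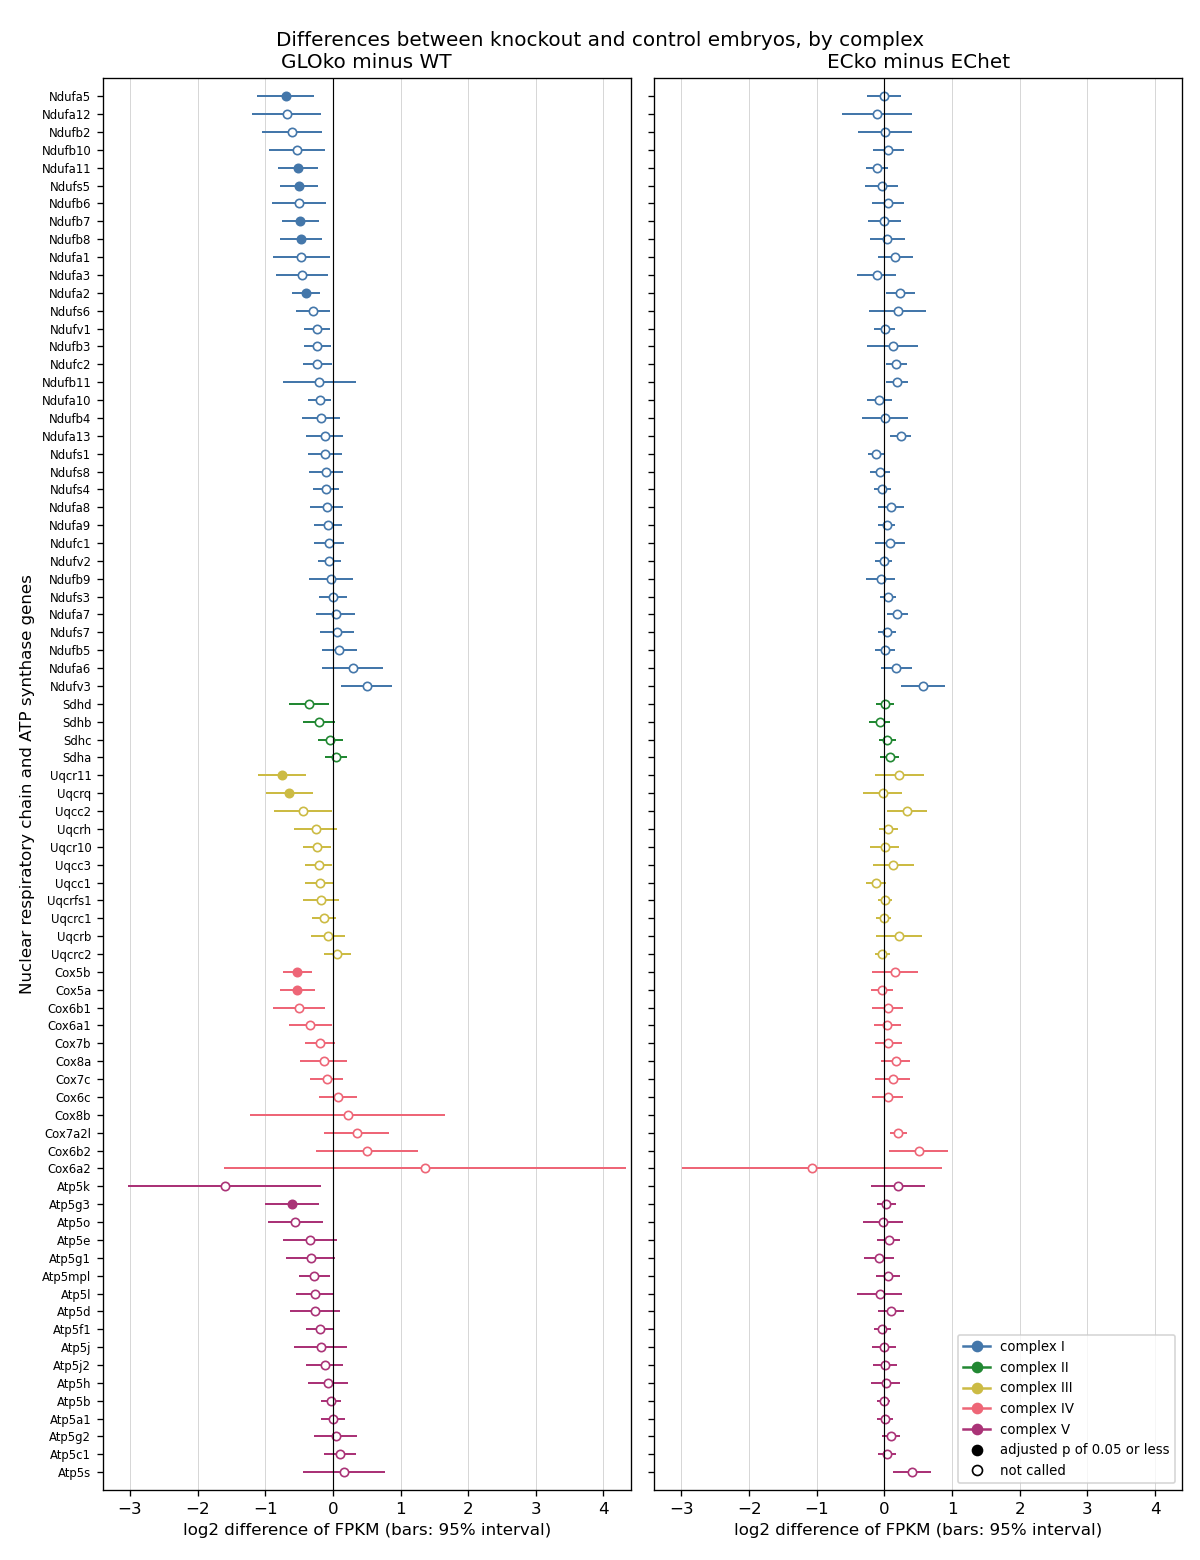
Log2 difference of FPKM between knockout and control embryos for members tested, grouped by complex, with GLOko minus WT (6 embryos each) on the left and ECko minus EChet (7 embryos each) on the right. Bars are 95% intervals and filled points have an adjusted p of 0.05 or less; 61 points lie below 0 on the left, and none is filled on the right.

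Gene model length moved with these differences. Among genes other than members, those under 1 kb had a median log2 difference of -0.08 and those of 4 kb and over one of 0.09, and over all genes the rank correlation of the difference with length was 0.19, a description over 17573 genes that share the same libraries. Members had a median model length of 1675 bases, against 3564 bases over all genes tested. Members under 1 kb had a median of -0.23, and the 11 members of 4 kb and over one of -0.19. A long model need not mean a long transcript. Ndufb2 had a model of 5628 bases and a principal annotated transcript of 455 bases, and Atp5l 6443 and 544 bases. For Atp5g1 the lengths were close, 4912 and 4715 bases. Only model length entered the length classes and the length trend. The 28 members of 1 to 2 kb were at -0.18 against -0.10 for other genes of that length, and the 19 members of 2 to 4 kb at -0.07 against -0.05. When the trend with length was removed from each library, members and other genes of 2 to 4 kb were both at 0.00. In the other classes the members stayed lower. They were at -0.06 against 0.08 for other genes under 1 kb, and at -0.06 against 0.03 at 1 to 2 kb. At 4 kb and over they were at -0.24 against -0.004. The median over all members was then -0.08, with 7 lower and 1, Ndufv3, higher. Of all 17573 genes, 739 were lower and 711 higher in that fit. Of the 11 calls, 4 ended there, Ndufa2 (adjusted p = 0.0586), Ndufa5 (0.06), Ndufb8 (0.0548) and Atp5g3 (0.0525).

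**Figure D2:**
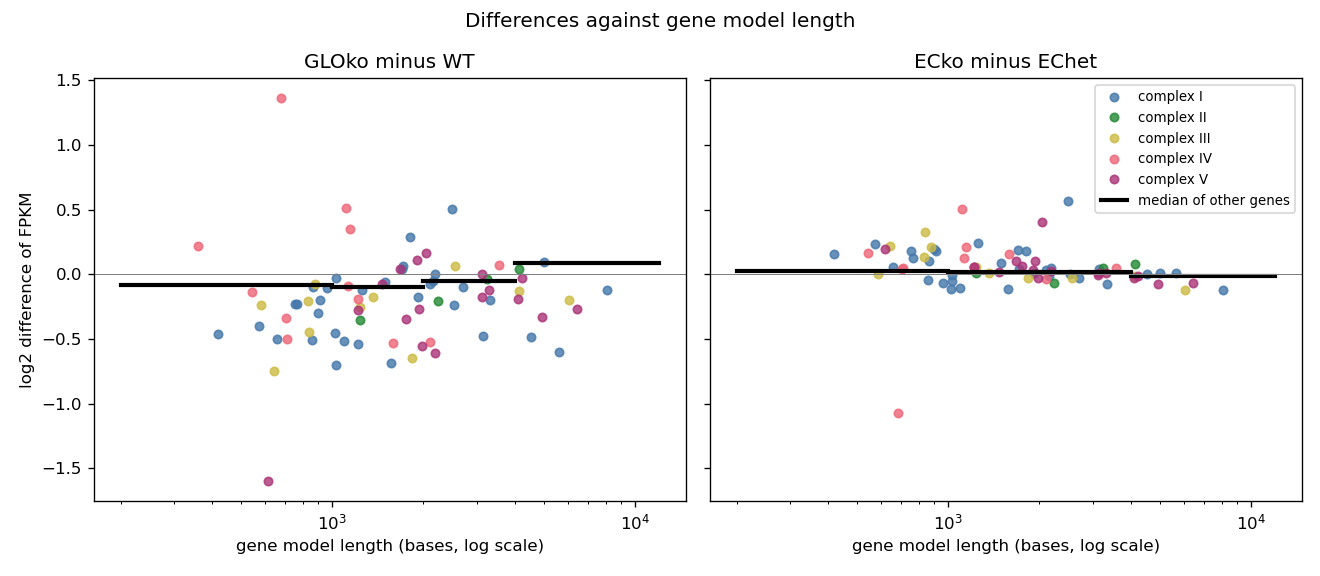
Log2 difference of FPKM of the same members against the length of its gene model (log scale), coloured by complex, for GLOko minus WT on the left and ECko minus EChet on the right. Black lines are the medians of all other genes in 4 length classes, which run from -0.08 under 1 kb to 0.09 at 4 kb and over on the left, and from 0.02 to -0.01 on the right.

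Within complex I the called genes were all accessory subunits, where 5.01% of all genes tested were lower. Of 28 accessory subunits, 6 were lower and the median log2 difference was -0.23. Of 7 core subunits, none was lower and the median was -0.05, with a range from -0.24 to 0.06. A count of none among 7 genes cannot be set apart from the share over all genes. The core genes also had longer models, with a median of 2178 bases against 1234 bases, and with the length trend removed the medians were -0.10 for accessory and 0.06 for core subunits. The difference between the classes was not tested.

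Ndufs5 (ENSMUSG00000028648, chr4:123712710-123718202), an accessory subunit on the intermembrane side, was at 26.5, 34.3 and 44.8 FPKM (lowest, median and highest embryo) in GLOko and 45.9, 50.6 and 56.3 FPKM in WT embryos. Every GLOko embryo lay below every WT embryo, with means of 35.9 ± 7.62 and 51.1 ± 3.70 FPKM (SD, n = 6 each, log2 difference -0.51 ± 0.12, SE, limma adjusted p = 0.0241). Ndufb7 (ENSMUSG00000033938, chr8:83566671-83571626), also an accessory subunit of the membrane arm, was at 7.16, 8.77 and 11.8 FPKM in GLOko against 12.4, 13.3 and 13.9 FPKM in WT embryos. The groups again did not overlap (log2 difference -0.48 ± 0.12, limma adjusted p = 0.0263). With a model of 4522 bases Ndufb7 kept the difference, -0.48, when the length trend was removed. Its principal annotated transcript has 623 bases, however. The trend was removed by model length, so that fit handled Ndufb7 as a long gene. Ndufa2 (ENSMUSG00000014294), an accessory subunit of the matrix arm, was at 42.7, 54.6 and 61.0 FPKM in GLOko and 64.8, 70.0 and 78.2 FPKM in WT embryos (log2 difference -0.40 ± 0.09, limma adjusted p = 0.0196). It did not overlap either, and its difference was -0.23 with the length trend removed.

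In the remaining called genes of complex I the groups overlapped. Ndufa5, an accessory subunit of the matrix arm, ran from 13.1 to 28.0 FPKM in GLOko and from 26.6 to 39.1 FPKM in WT embryos, and GLOko 1 and GLOko 2 were the lowest. It had the largest change of a called complex I gene (log2 difference -0.70 ± 0.19, limma adjusted p = 0.0358). Ndufa11, an accessory subunit of the membrane arm, ran from 24.7 to 46.9 FPKM against 45.1 to 54.2 FPKM (log2 difference -0.52 ± 0.13, limma adjusted p = 0.0285), and only GLOko 5 reached the WT range. Ndufb8 was at 12.3 to 22.5 FPKM in GLOko and 21.7 to 26.7 FPKM in WT embryos (log2 difference -0.47 ± 0.14, limma adjusted p = 0.0429). Of the uncalled genes, Ndufa12, an accessory subunit of the matrix arm, had the largest difference (-0.68 ± 0.23, limma adjusted p = 0.0707), with 6.30 FPKM in GLOko 1, 14.2 to 19.9 FPKM in the other GLOko embryos and 19.7 to 31.6 FPKM in WT embryos.

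Ndufv3, an accessory subunit next to the flavin-bearing core, went the other way. It was at 18.4, 22.0 and 32.6 FPKM in GLOko and 12.6, 15.8 and 24.1 FPKM in WT embryos. In the Tie2-Cre table it was at 14.5, 17.0 and 28.0 FPKM in ECko and 8.78, 13.1 and 14.7 FPKM in EChet embryos. WT 3 and EChet 6 overlapped with the knockout embryos, and neither difference was called (0.50 ± 0.17, limma adjusted p = 0.0698, and 0.57 ± 0.14, limma adjusted p = 0.161). With the length trend removed, Ndufv3 was higher in GLOko than in WT embryos (log2 difference 0.57, limma adjusted p = 0.0451), and it was the single member called higher under any alternative.

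No gene of complex II was called in GLOko embryos. Sdhd, a membrane anchor and the complex II gene with the highest mean FPKM, also had the largest difference. It was at 56.9, 89.0 and 107.7 FPKM in GLOko and 101.6, 111.0 and 121.1 FPKM in WT embryos (log2 difference -0.35 ± 0.13, limma adjusted p = 0.0985). Sdha, the flavoprotein that oxidizes succinate, was at 67.6 to 77.4 FPKM in GLOko and 67.8 to 73.0 FPKM in WT embryos (log2 difference 0.04, 95% interval -0.10 to 0.19).

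In complex III, 2 of 11 genes fell, both small accessory subunits. Uqcr11 (ENSMUSG00000020163, chr10:80402997-80406830) was at 25.4, 36.1 and 46.7 FPKM in GLOko and 50.6, 59.6 and 68.5 FPKM in WT embryos, and GLOko 1, GLOko 2 and GLOko 6 were the lowest. Each GLOko embryo was below each WT embryo, and at 59.5% of the WT level this was the largest change among the 11 called members (log2 difference -0.75 ± 0.16, limma adjusted p = 0.0145). Uqcrq (ENSMUSG00000044894, chr11:53427922-53430831) was at 18.0, 22.9 and 35.6 FPKM in GLOko and 33.9, 39.2 and 41.6 FPKM in WT embryos (log2 difference -0.65 ± 0.15, limma adjusted p = 0.0222), and only GLOko 4 reached the WT range. Uqcrfs1, the Rieske iron-sulfur protein and the complex III gene with the highest mean FPKM, was at 71.3 FPKM in GLOko 1, 104 to 121.6 FPKM in the other GLOko embryos and 113 to 126.3 FPKM in WT embryos (log2 difference -0.18 ± 0.12, limma adjusted p = 0.347). The 3 assembly factors were each lower at an unadjusted p under 0.05, led by Uqcc2 with a log2 difference of -0.44 ± 0.19 (limma adjusted p = 0.151).

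In complex IV, Cox5a and Cox5b fell. Cox5a binds on the matrix side and Cox5b is a zinc-binding subunit beside it. Cox5b (ENSMUSG00000061518, chr1:36691449-36693681) was at 35.4, 44.9 and 53.3 FPKM in GLOko and 59.8, 65.2 and 70.4 FPKM in WT embryos, without overlap (exact permutation p = 0.00216, two-sided, the smallest that 6 against 6 allow and shared by every member without overlap). Its log2 difference was -0.53 ± 0.09, with the smallest limma p of the members (adjusted p = 0.00839). Cox5b kept its call under all 27 alternatives run for this comparison. Cox5a (ENSMUSG00000000088, chr9:57521274-57532426) was at 28.7, 36.8 and 47.2 FPKM in GLOko and 49.4, 54.4 and 63.6 FPKM in WT embryos without overlap (log2 difference -0.53 ± 0.11, limma adjusted p = 0.0154), and kept its call under 25 of the 27. Cox6b1, an accessory subunit that joins the monomers of the enzyme, did not overlap either (71.8 to 167.5 against 172.1 to 202.4 FPKM) but was not called (log2 difference -0.50 ± 0.17, limma adjusted p = 0.0732).

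**Figure D3:**
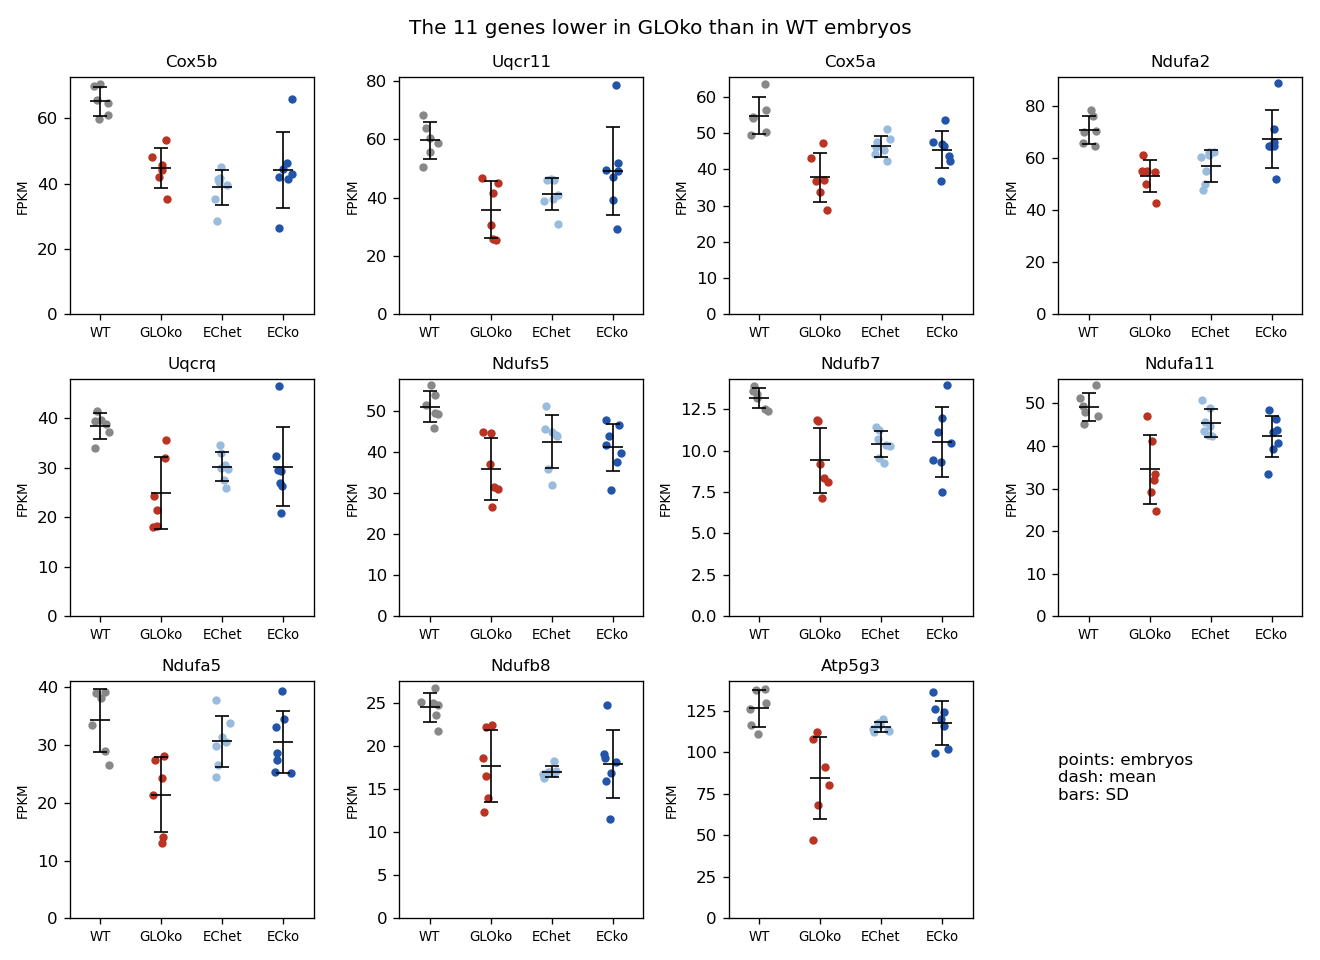
FPKM of each embryo for the 11 members lower in GLOko than in WT embryos, with the mean (dash) and SD (bars) of WT, GLOko, EChet and ECko embryos. Cox5b ran from 35.4 to 53.3 FPKM in GLOko and from 59.8 to 70.4 FPKM in WT embryos; the 2 tables were normalized separately, so EChet and ECko are to be compared only with each other.

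The paralogs of complex IV that are typical of heart, muscle or testis were low or at 0. Cox8c was listed at 0 in all 26 libraries, Cox7b2 had 2 reads in 1 library, and Cox8b, a heart and muscle form, reached at most 1.03 FPKM, in GLOko 2. Cox8a, the general form and the complex IV gene with the highest mean FPKM, was at 195.2 to 388.5 FPKM in GLOko and 239.6 to 351.6 FPKM in WT embryos (log2 difference -0.14 ± 0.15, limma adjusted p = 0.601). Cox6a2, the heart and muscle form of subunit 6a, was at 0 in GLOko 1 and WT 4, at 0.175 FPKM in WT 6, at 35.1 FPKM in GLOko 2 and between 2.44 and 7.35 FPKM in the other embryos of that table. In the Tie2-Cre table it was at 0 in ECko 3 and 0.0587 FPKM in ECko 4, and between 2.38 and 4.43 FPKM in all others. The 3 libraries with Cox6a2 at 0 were all among the 4 in which the heart markers were low. Cox6a1, the general form, was at 115.8 FPKM in GLOko 1, 191.9 to 226.1 FPKM in the other GLOko embryos and 220.4 to 270.2 FPKM in WT embryos (log2 difference -0.34 ± 0.14, limma adjusted p = 0.139). Cox6b2, the testis form of subunit 6b, was at 13.8 FPKM in GLOko 2 and 3.09 to 4.63 FPKM in the other GLOko embryos, against 2.12 to 5.49 FPKM in WT embryos. Cox7b, an accessory subunit, was at 53.5 ± 7.87 FPKM in GLOko and 61.5 ± 4.11 FPKM in WT embryos (n = 6 each, log2 difference -0.19, limma adjusted p = 0.224).

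Cox7a2l, known as a supercomplex factor, was at 271 FPKM in GLOko 2, 96.7 to 122.6 FPKM in the other GLOko embryos and 90.1 to 113.6 FPKM in WT embryos (log2 difference 0.35 ± 0.22, limma adjusted p = 0.309). In the Tie2-Cre table it had the smallest p of all members. ECko embryos were at 93.4, 99.2 and 114.7 FPKM and EChet embryos at 82.0, 87.4 and 94.8 FPKM, with an overlap through EChet 7 (log2 difference 0.21 ± 0.05, limma adjusted p = 0.160).

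In complex V, Atp5g3 fell, and it is 1 of 3 genes for subunit c. Atp5g1, Atp5g2 and Atp5g3 encode the same mature protein behind different import sequences. Atp5g3 (ENSMUSG00000018770, chr2:73908447-73911326) was at 47.2, 85.8 and 112.3 FPKM in GLOko and 110.8, 127.7 and 138.2 FPKM in WT embryos, and only GLOko 4 reached the WT range (log2 difference -0.61 ± 0.18, limma adjusted p = 0.0448). Atp5g2 was at 163.5 FPKM in GLOko 2, 82.9 to 100.7 FPKM in the other GLOko embryos and 95.3 to 109.8 FPKM in WT embryos (log2 difference 0.04, 95% interval -0.26 to 0.34). Atp5g1 was at 10.8 to 20.7 FPKM in GLOko and 16.7 to 22.4 FPKM in WT embryos (log2 difference -0.33 ± 0.16, limma adjusted p = 0.200). Of the reads of the 3 genes together, Atp5g3 had 41.2% ± 6.33 in GLOko and 50.4% ± 1.85 in WT embryos, and Atp5g2 had 40.8% ± 8.42 and 31.6% ± 1.96 (SD, n = 6 each). In ECko and EChet embryos Atp5g3 had 49.6% ± 1.96 and 49.9% ± 1.89 (n = 7 each).

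**Figure D4:**
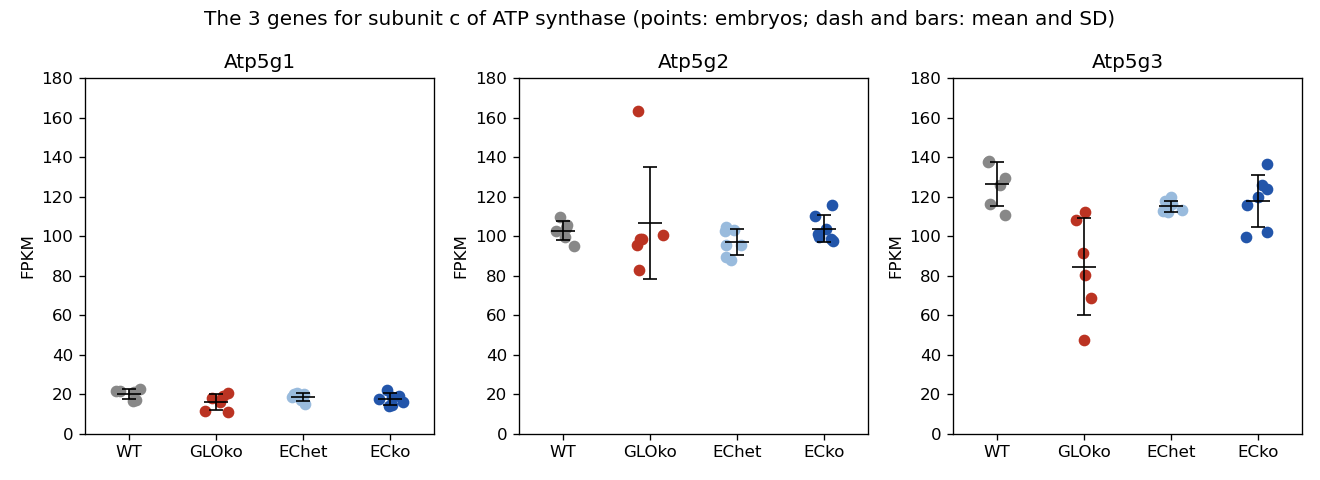
FPKM of Atp5g1, Atp5g2 and Atp5g3, the 3 genes for subunit c of ATP synthase, in each embryo (points), with the mean (dash) and SD (bars) of each group. Atp5g3 ran from 47.2 to 112.3 FPKM in GLOko and from 110.8 to 138.2 FPKM in WT embryos, whereas for Atp5g2 GLOko 2 stood alone at 163.5 FPKM.

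None of the 5 genes of the F1 head was called, and their median log2 difference was -0.03. Atp5a1, the alpha subunit and the complex V gene with the highest mean FPKM, was at 375.4, 386 and 458.8 FPKM in GLOko and 389.1, 398 and 427 FPKM in WT embryos (log2 difference 0.00, 95% interval -0.16 to 0.16). The largest difference of any member was that of Atp5k, subunit e of the membrane part, and it was not called. It was at 0.683 FPKM in GLOko 1, 4.49 FPKM in GLOko 6, 11.5 to 22.2 FPKM in the other GLOko embryos and 20.6 to 27.1 FPKM in WT embryos (log2 difference -1.60 ± 0.65, 95% interval -3.01 to -0.19, limma adjusted p = 0.128). GLOko 1 and GLOko 6 were also the embryos in which other genes under 1 kb were lowest, with medians of -0.59 and -0.38 against the WT mean, and the Atp5k model has 616 bases. One of the 2 genes named Atp5o, with a model of 530 bases that overlaps the other, was listed at 0 in every library and was not tested.

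The call count rested on particular libraries. Leaving out GLOko 1, GLOko 2 and GLOko 6, which had few detected genes, gave 8 members lower and none higher. Of these 8, 4 were among the 11 (Ndufa2, Uqcr11, Cox5a and Cox5b) and 4 were other genes of complex I, while the other 7 of the 11 calls ended. By complex there were then 5 lower in complex I, 1 in complex III, 2 in complex IV and none in complex V. Leaving out GLOko 1 and WT 4, which were low in heart markers, gave 2 lower, Cox5a and Cox5b, where 1.09% of all genes were lower. Without any one of WT 1, WT 2, WT 3 or WT 5 the count was 5, 4, 6 or 5. It was 2 once the count of detected genes entered the fit. The count over all genes moved as well, with 880 lower with all libraries and 301 to 1248 when 1 library was left out. The counts of members in these fits therefore cannot be read as a change in the members alone. The median over members stayed negative under every alternative run, from -0.22 to -0.08.

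The embryos differed in how far their members lay below the WT mean. The median over members was -0.50 in GLOko 1, -0.30 in GLOko 3 and between -0.13 and -0.09 in the other 4 GLOko embryos, while WT embryos ran from -0.09 (WT 4) to 0.08. GLOko 1 was low in complexes I, III, IV and V, at -0.47 to -0.55, and at -0.05 in complex II. The mean over the 4 genes of complex II was -0.24 in GLOko 1, with 3 of them below the WT mean. Their summed FPKM was 215.9, against 254.8 to 286.7 in WT embryos. In GLOko 2 complexes I, II, III and V were at -0.13 to -0.23 and complex IV at 0.05. The members took 0.914% ± 0.0469 of reads in the 6 GLOko embryos (SD) and 1.00% ± 0.0398 in the 6 WT embryos, and each complex had a lower mean share in GLOko embryos, from 0.194% against 0.216% for complex I to 0.466% against 0.503% for complex V.

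Genes of the matrix ribosome, another nuclear-encoded set, had a median log2 difference of -0.33 with 23 of 77 lower (29.9%, against 5.01% of all genes) and 1 higher. The count of lower genes was 13 with the length trend removed, 11 with a fixed FPKM total, 24 without GLOko 1, GLOko 2 and GLOko 6, of which 16 were among the 23, 4 without GLOko 1 and WT 4, and 7 to 35 when 1 library was left out. Genes of the cytosolic ribosome had a median of -0.06, or 0.05 with the length trend removed, with none of 98 lower and 2 higher, and 0 to 11 were lower when 1 library was left out. Of the marker lists of cell types, cardiomyocytes had a median of 0.70, with all 8 differences positive, yolk sac and liver endoderm one of 0.48, endothelium 0.26, primitive erythroid cells 0.21, macrophages -0.40 and neurons -0.85, with all 5 negative. Kdr, an endothelial receptor, rose (log2 difference 0.76, limma adjusted p = 0.021), and no other gene of the 6 lists was called. Without GLOko 1 and WT 4 the cardiomyocyte median was 1.04 and 2 of its 8 markers were higher, and without GLOko 1, GLOko 2 and GLOko 6 all 5 neuron markers were lower, with a median of -1.62. The part of cell composition, RNA quality and gene length in the members' differences was not tested.

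**Figure D5:**
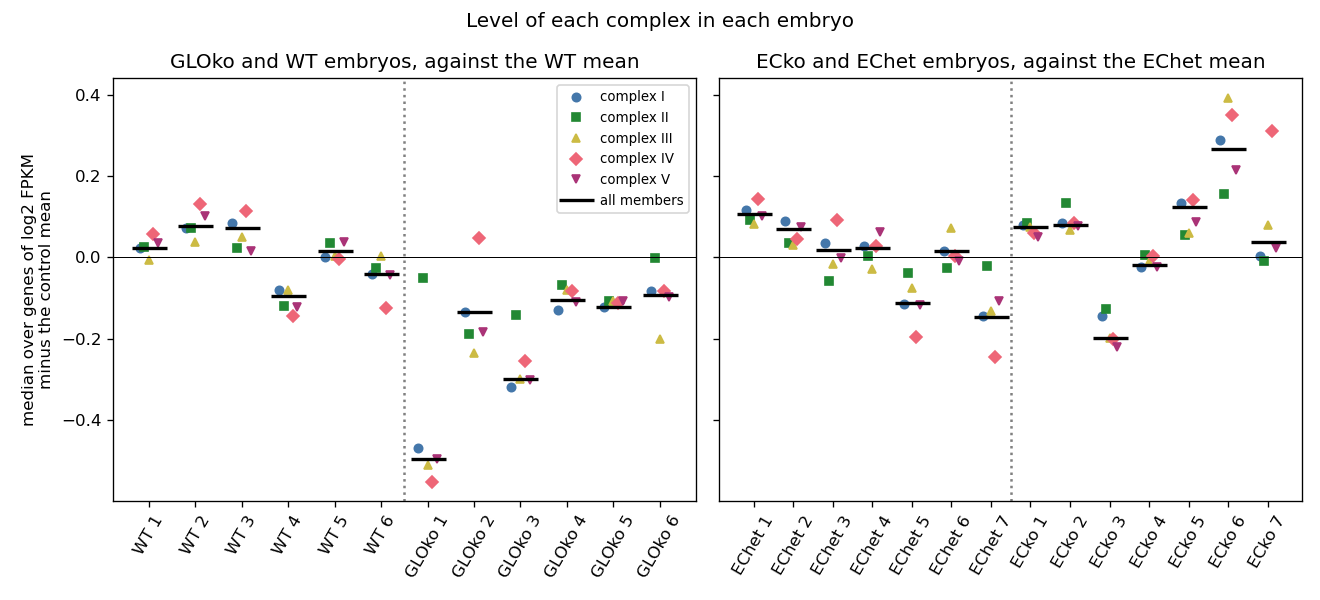
Median over the members of each complex of log2 FPKM minus the mean of the control group, for each embryo, with the median over all members as a black dash. GLOko 1 lies at -0.50 and GLOko 3 at -0.30 over all members, while WT embryos lie between -0.09 and 0.08, and ECko embryos between -0.20 (ECko 3) and 0.27 (ECko 6).

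Related genes outside the member set moved both ways in GLOko embryos. The list holds the 4 genes left out by the rule, genes with other names, and Cycs, which encodes cytochrome c. Of the 10 tested, 1 was lower and 2 were higher, against 5.01% and 5.42% of all genes. Cyc1, the cytochrome c1 subunit of complex III, fell from 93.3 ± 5.21 to 65.6 ± 17.6 FPKM (log2 difference -0.53, limma adjusted p = 0.0426). This call held under 9 of the 27 alternatives and ended with the length trend removed (limma adjusted p = 0.0584), with a fixed FPKM total (0.0673), without GLOko 1, GLOko 2 and GLOko 6 (0.0671) and without GLOko 1 and WT 4 (0.0952). Cox4i2, the paralog of subunit 4 known to be induced at low oxygen, rose from 7.49 ± 2.36 to 36.3 ± 19.1 FPKM (log2 difference 2.21, limma adjusted p = 0.00148), and Ndufa4l2, likewise known as a hypoxia-induced paralog, rose from 2.90 ± 3.44 to 28.3 ± 26.9 FPKM (log2 difference 3.41, limma adjusted p = 0.00641). Cox4i1, the general form of subunit 4, was at 168.7 ± 20.6 and 177.8 ± 15.3 FPKM (log2 difference -0.06, limma adjusted p = 0.735). Of 41 assembly factors tested, 10 fell (24.4%, against 5.01% of all genes) and none rose. The count was 7 with the length trend removed, 6 with a fixed FPKM total, 6 without GLOko 1, GLOko 2 and GLOko 6, 3 without GLOko 1 and WT 4, and 4 to 12 when 1 library was left out. The 3 of smallest p were Ndufaf8, which is needed to assemble complex I (log2 difference -1.11, limma adjusted p = 0.00938), Coa7, a factor of complex IV (-0.58, limma adjusted p = 0.0135), and Taco1, the activator of Cox1 translation (-0.64, limma adjusted p = 0.0141). Of the 13 mRNAs from the mitochondrial genome none was called, with a median of 0.21.

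The second comparison asked the same of endothelial loss. Of 78 members tested in ECko against EChet embryos, limma called none lower and none higher, where 0.04% of all 17514 genes were lower and 0.0571% higher. At an unadjusted p under 0.05, 10 members were higher and 1, Ndufs1, was lower, where 1407 of all genes were higher and 1124 lower. On the reads recovered from the FPKM values, limma-voom called none of the members. Without ECko 3 and ECko 4, which were low in heart markers, again none was called and the median was 0.11. The median log2 difference was 0.04, against 0.00 over all genes, and 54 of 78 differences were positive. No member separated the groups, while 0.24% of all genes were lower and 0.268% higher without overlap. The genes called in GLOko embryos had intervals such as -0.18 to 0.11 for Cox5a, -0.16 to 0.48 for Cox5b and -0.10 to 0.16 for Atp5g3. In ECko embryos Uqcr11 was at 29.4, 49.2 and 78.7 FPKM, against 31.0, 40.9 and 46.4 FPKM in EChet embryos, with ECko 6 highest and ECko 3 lowest (log2 difference 0.22, 95% interval -0.13 to 0.56). Of the other uncalled members, Atp5s, a coupling factor, was at 3.26 ± 0.559 in ECko and 2.45 ± 0.412 FPKM in EChet embryos (n = 7 each, log2 difference 0.40, limma adjusted p = 0.203), and Uqcc2 was at 41.0 ± 8.44 and 32.4 ± 4.95 FPKM (log2 difference 0.33, limma adjusted p = 0.277).

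The transcripts of the mitochondrial genome did not follow the nuclear members in ECko embryos. Of the 13, 4 fell (30.8%, against 0.04% of all genes), with a median over the list of -0.68. They were mt-Nd5, mt-Nd6 and mt-Nd4, core subunits of complex I, and mt-Co1, the catalytic subunit of complex IV. Of the 13 differences, 11 were negative. The 2 positive ones were mt-Nd3 (0.49, limma adjusted p = 0.229) and mt-Atp8 (0.55, limma adjusted p = 0.696). Levels were uneven, with mt-Atp8 at means of 0.592 FPKM in ECko and 0.310 FPKM in EChet embryos, and mt-Co3 at 8.68 and 12.1 FPKM. mt-Nd5 fell from 540.1 ± 50.5 to 330.6 ± 50.8 FPKM (n = 7 each, log2 difference -0.72, limma adjusted p = 0.00911) and mt-Co1 from 2533 ± 281 to 1568 ± 305 FPKM (log2 difference -0.70, limma adjusted p = 0.0416). On the recovered reads, limma-voom called 2 of the 13 lower. Without ECko 3 and ECko 4 the median was -0.60 and 1 of the 4 calls held, mt-Nd5 (limma adjusted p = 0.0398), and 1 to 5 were lower when 1 library was left out. The cardiomyocyte markers had a median of -0.86 in the same comparison, with all 8 negative, and the neuron markers one of -0.31, with all 5 negative. Without ECko 3 and ECko 4 these medians were -0.04 and -0.16, and the part of cell composition in the lower mRNA levels was not tested.

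Whether the effect differed between the designs was tested as GLOko minus WT less ECko minus EChet. Of 78 members, 3 had a lower effect in the global design and none a higher one, where 1.02% of all genes were lower and 1.05% higher. They were Ndufa2 (-0.64, limma adjusted p = 0.0281), Uqcr11 (-0.97, limma adjusted p = 0.0389) and Cox5a (-0.49, limma adjusted p = 0.0456). With the length trend removed none was called, and leaving out 1 library at a time gave 0 to 12. Over all members the median was -0.24, and 67 of 78 values were negative.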

How the data were processed

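RNA of single E9.5 embryos was isolated, sequenced on an Illumina platform and aligned with STAR to mm10, per the submitters' processing notes. The study's software list also names HISAT2 and featureCounts, a read counter, without saying what each was run on. The strand setting and the annotation release were not given in the sources used here, so reads shared with pseudogene copies or with overlapping or antisense genes cannot be told apart. The authors deposited 2 FPKM tables, 1 per comparison, in which fragments are scaled to gene length and library size, together with gene lengths, coordinates and names, deposited as other values of each gene. FPKM times gene length gave whole reads in 100% of values (within 0.01 of a whole number), which returned the depth per library. These reads set the precision of each value, and intervals cover the spread between embryos.

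FPKM was divided by a median-of-ratios factor, 0.1 was added and log2 taken. Genes averaging 0.1 FPKM or more were tested with limma 3.58.1 (trend, robust, two-sided) in R 4.3.3, and p was adjusted by Benjamini-Hochberg over all genes tested, with calls at 0.05 or less. Fold changes are on the log2(FPKM + 0.1) scale, which understates changes of low genes. Single members also had an exact permutation test over embryos. The study's own test was run with DESeq2 on counts, which were not used here. Embryos were grouped by the labels, which do not say whether same-numbered embryos share a litter. Correlations of same-numbered deviations ran from -0.0806 to 0.111. The best partner carried the same number for replicate 6 of GLOko against WT and replicates 1 and 2 of ECko against EChet. Low correlations cannot decide whether embryos shared a litter, so a pairing remained unknown. On simulated data for GLOko against WT with 18001 genes, 71% of genes changed by 0.5 on the log2 scale were recovered. For a change of 1 the share was 88%. The median SD on the log2 scale over all genes tested was 0.432 in GLOko and 0.208 in WT embryos. Over members it was 0.285 and 0.118. Recovery at the larger spread of the GLOko embryos was not tested.

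Members and gene lists were chosen with earlier results of these data known. The text names every called member, the member of highest mean FPKM and the uncalled member of largest difference in each complex, fixed paralogous sets, and up to 3 called genes of smallest p of each other list. Of the members this rule picks, 1 is not reported here and all others are. Ndufv1, Ndufs1, Atp5b, Gabpa and Cox4i1 fall outside this rule and were named after their values were seen. Alternatives covered the constant, filter, scaling, sample weights, replicate block, gene length, detected genes, voom and leaving out libraries. Scaling to a fixed FPKM total and leaving out ECko 3 and ECko 4 were added after seeing the data.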

Additional observations from a re-analysis of the deposited data

Results flagged for a closer look

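Among 125 groups of values (32 named members and the median over members, by group), 14 had an embryo set apart from its group by Dixon's criterion, where chance gives about 1 in 20, or 6.25. Of the 14, 6 were GLOko 2 at the top of its group. They were Atp5a1 at 458.8 FPKM (next 394.9), Atp5g2 at 163.5 FPKM (next 100.7), Cox6a2 at 35.1 FPKM (next 6.47), Cox6b2 at 13.8 FPKM (next 4.63), Cox7a2l at 271 FPKM (next 122.6) and Cox8b at 1.03 FPKM with all other GLOko embryos at 0. GLOko 1 was set apart at the bottom for Cox6a1 at 115.8 FPKM (next 191.9) and Uqcrfs1 at 71.3 FPKM (next 104). Cox8b was also detected in a single embryo of its group in WT 1 (0.377 FPKM) and ECko 4 (0.333 FPKM), and Cox7b2 in ECko 4 (0.147 FPKM), each on a handful of reads. The remaining embryos were WT 6 for Ndufa12 at 31.6 FPKM, EChet 4 for Ndufb8 at 18.3 FPKM and EChet 7 for Ndufv3 at 8.78 FPKM.

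The effect of the global deletion differed from that of the endothelial deletion in the joint limma fit for Ndufa2 (-0.64 on the log2 scale, adjusted p = 0.0281), Uqcr11 (-0.97, adjusted p = 0.0389) and Cox5a (-0.49, adjusted p = 0.0456). Of 39 alternatives, Ndufa2 kept its call under 31, Uqcr11 under 22 and Cox5a under 16. Each call ended with the length trend removed.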

How the results depend on the processing

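In GLOko against WT embryos 11 members were lower and none higher. The count of lower members was 7 with the length trend removed, 2 once the count of detected genes entered the fit and 2 without GLOko 1 and WT 4. It was 4 to 14 when 1 library was left out. Over all genes the count of lower genes was 880. It was 739 with the length trend removed, 416 with a fixed FPKM total and 301 to 1248 when 1 library was left out. Ndufv3 was called higher, giving a count of 1, with the length trend removed, with sample weights, with a fixed FPKM total (chosen after seeing the data, 9 lower) and in some fits without 1 library, whose range was 0 to 1. The replicate block assumes that same-numbered embryos are paired, which is not known. With the block 5 members were lower and 1 higher, and with the block and the length trend removed 3 were lower and 1 higher. In ECko against EChet embryos the counts stayed at 0 under every alternative run, the replicate block included. With the block the calls of Nrf1 (limma adjusted p = 0.0689), Cyc1 (0.059), Ppargc1b (0.0514) and the 4 mRNAs of the mitochondrial genome (0.179 to 0.221) also ended. For the difference between the designs, 3 members lower became 1 without a filter on low values, 6 at a mean FPKM of at least 1, 7 with sample weights, 5 with limma-voom and 0 with the length trend removed, with or without the replicate block, and 0 to 12 when 1 library was left out. No named member changed its direction while called. Under the alternatives for GLOko against WT, 703 of the values of single named members kept their side of the threshold, 89 lost their call and 14 gained one. Depth limits Cox7b2, Cox8b and Cox8c, with at most a few reads.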
